A study of Rattus norvegicus with 32 samples.

Results

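The ADAM and ADAMTS proteases were described in liver sinusoidal endothelial cells (LSECs) by the 49 genes whose symbols are Adam, Adamts or Adamtsl followed by a number, of 32623 genes measured. They comprised 25 Adam genes, 19 Adamts genes and 5 Adamtsl genes, and the rule picks them by symbol. RNA was sequenced from LSECs of male rats in 32 libraries. The carbon tetrachloride (CCl4) model held 6 healthy libraries and CCl4-inhaling rats after 2 weeks (acute, 5 libraries), 6 weeks (fibrosis, 5 libraries) and 12 to 14 weeks (cirrhosis, 6 libraries), all labelled Wistar Han. In this model the drinking water held phenobarbital according to the study's methods, and cells were isolated some days after the last toxicant dose. A thioacetamide (TAA) experiment added 5 libraries labelled control and 5 labelled TAA control. The labels do not settle which of these rats received TAA, and they give Wistar Han where the study's methods give Sprague-Dawley, so this pair is reported by label with no direction of disease. The labels give an age for no group, no genetic change is named, and all libraries are of isolated cells, so loss of a cell type and less RNA per cell cannot be told apart.

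ADAM proteases are membrane-anchored metalloproteases, and the active ones cut the outer parts of other membrane proteins, a step called shedding that releases cytokines and growth factors and starts Notch signalling. ADAMTS proteases are secreted, bind matrix through thrombospondin repeats, and cut proteoglycans, procollagens or von Willebrand factor. ADAMTS-like (ADAMTSL) proteins share the non-catalytic repeats of the ADAMTS fold and have no protease domain. In the liver, Adamts13 is known as a product of stellate cells, whereas endothelial cells supply von Willebrand factor, and Adam10 and Adam17 are expressed in most cell types.

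Levels were given as CPM, counts scaled by library total and by TMM factors, which adjust for composition, and because gene lengths were not used a CPM level is compared only within a gene. In the CCl4 groups, 26 members had a mean of at least 5 CPM in at least 1 group, 2 had 1 to 5 CPM (Adamts3 and Adamts17), and 21 stayed under 1 CPM. No count was found in any library for 3 of them, Adam7, Adam21 and Adam26a, and a count of 0 allows up to 0.0646 to 0.117 CPM in 1 library at these depths (3 counts of the library, counting error only). Passing the filter on low counts brought 34 members into at least 1 comparison and 27 into all 6, and 15 were tested in none. The tested members are therefore those with enough counts, not the whole family. A member that passed by the counts of only 1 of the 2 groups compared could hardly differ in the other direction.

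The share of a library's counts that fell on the 49 genes was 0.266% to 0.484% in healthy, 0.104% to 0.138% in acute, 0.115% to 0.128% in fibrosis and 0.380% to 0.503% in cirrhosis. Acute and fibrosis libraries lay below all healthy and cirrhosis libraries. The share was 0.454% to 0.667% in control and 0.373% to 0.487% in TAA control, which overlapped. A pair of genes, picked out after their values were seen, carried most of that difference. Adamts1 and Adamts4 together took 0.189% to 0.385% of counts in healthy, 0.0117% to 0.0205% in acute, 0.0155% to 0.0226% in fibrosis and 0.241% to 0.334% in cirrhosis. The other 47 genes took 0.0775% to 0.122% in healthy, 0.0892% to 0.125% in acute, 0.0990% to 0.108% in fibrosis and 0.118% to 0.179% in cirrhosis, so that without the pair acute and fibrosis overlapped healthy.

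**Figure D1:**
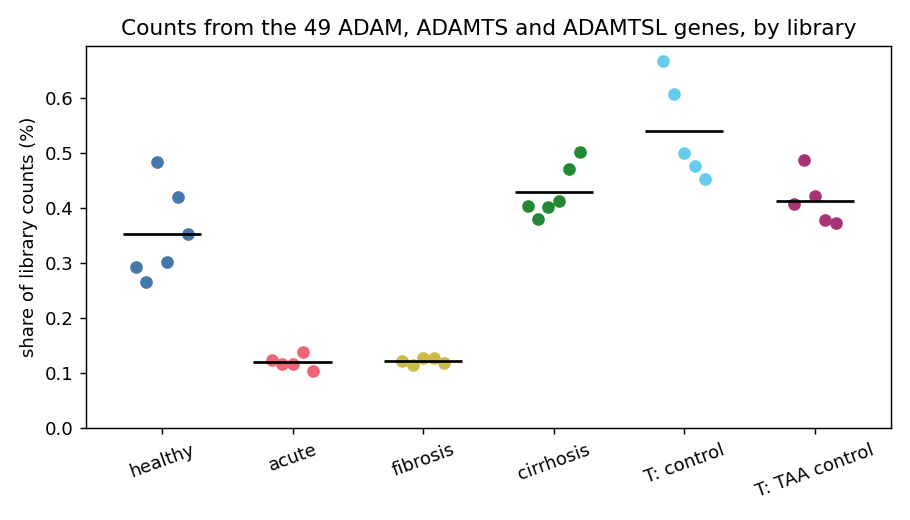
Percent of each library's counts (y axis) that fell on the 49 genes, by group (x axis), with 1 point per library and a line at the group mean. The 5 acute libraries (0.104% to 0.138%) and the 5 fibrosis libraries (0.115% to 0.128%) sit below all 6 healthy libraries (0.266% to 0.484%) and all 6 cirrhosis libraries (0.380% to 0.503%), a difference that the other 47 genes without Adamts1 and Adamts4 did not show against healthy.

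Several other features of the libraries moved with stage and bear on each comparison below. Totals were 25646531 to 46464289 counts per library. The summed level of the 11 LSEC markers found of 12 listed was 15592 to 30121 CPM in healthy and 3863 to 4500.4 in acute. It was 2688 to 3726 CPM in fibrosis and 16068 to 20391 in cirrhosis. Apart from Cdh5, each of these markers averaged lower in acute and fibrosis than in healthy. Among them were Stab2 (3482, 148 and 180 CPM in healthy, acute and fibrosis) and Lyve1 (1342, 849 and 587 CPM). Cdh5, which encodes the endothelial cadherin, averaged 1293, 1597, 1039.7 and 1506 CPM in healthy, acute, fibrosis and cirrhosis. The 10 stellate cell and fibroblast markers summed to 176 to 606, 8.41 to 29.3, 43.7 to 176 and 483 to 1681 CPM in the same order, and to 1683 to 4557 in control and 205 to 306 in TAA control. The 5 markers of vascular and lymphatic endothelium summed to 1271 to 4356, 15.6 to 32.3, 24.7 to 57.2 and 1565 to 3819.6 CPM, and to 1455 to 2493 in control and 469.8 to 601 in TAA control. The 7 Kupffer cell and macrophage markers summed to 154 to 2199, 42.7 to 119, 22.05 to 147 and 518 to 2141 CPM, and the 5 neutrophil markers to 3.59 to 45.1, 0.278 to 1.11, 0.266 to 2.64 and 2.49 to 13.6 CPM. The 6 hepatocyte markers summed to 1272 to 27235 CPM in healthy, 145 to 917 in acute, 1287 to 5093 in fibrosis and 2913 to 14288 in cirrhosis. They summed to 2187 to 5438 CPM in control and 637 to 1432 in TAA control. Immediate-early genes, a list of 8 added after results were known, summed to 25080.2 to 50599, 795 to 2059, 1692 to 2644 and 15037 to 32289 CPM, and to 9719 to 19653 in control and 32519.8 to 48625 in TAA control. The neutrophil marker Mpo was at 0 in all 5 control libraries. No other marker of these lists was at 0 in all libraries of a group. The part of these markers in the results below was not tested. Healthy libraries 5 and 6 stood apart from the other 4 on the second principal component (16.05 and -11.1 against 43.4 to 75.97), and members called against healthy whose fold-change moved by over 1.5 times, or whose call ended, are also given without them. TAA control libraries 14 and 15 were more alike (chi-square per degree of freedom 2.96, where 1 is sampling noise) than any other pair of libraries of a group. Library numbers are those of the titles, and for 4 of the 5 TAA control libraries, 12 to 15, the labels' descriptions hold the number 1 lower. Leaving out any 1 library of that comparison, these included, gave 17 to 19 members called. The labels give no batch, and a batch that follows the stages and the stages cannot be told apart.

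**Figure D2:**
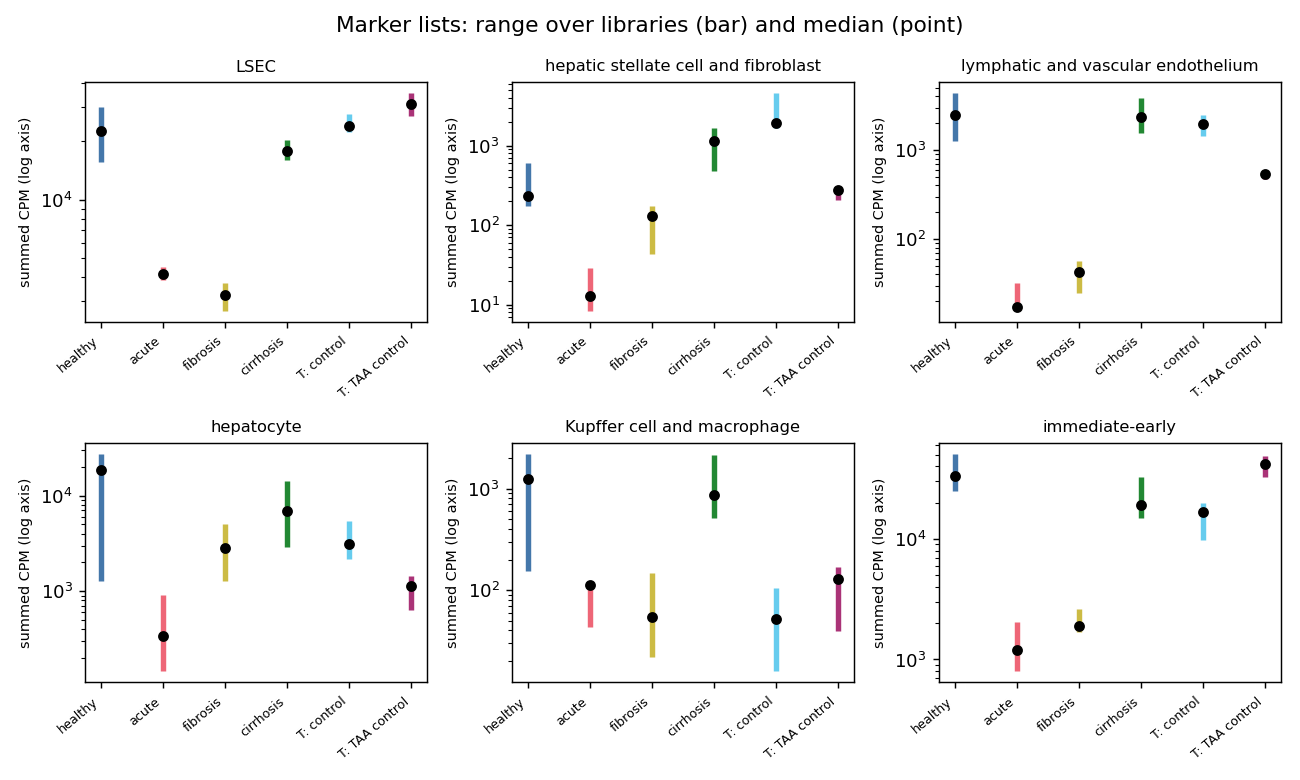
Summed CPM of 6 marker lists (y axis, log scale) by group (x axis), with a bar from the lowest to the highest library and a point at the median. The LSEC, vascular endothelium and immediate-early sums are low in acute and fibrosis, and the stellate cell and fibroblast sum is lowest in acute (8.41 to 29.3 CPM) and highest in control (1683 to 4557 CPM).

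Changes were tested with limma-voom, and a gene is called when its unadjusted p is under 0.05 and its fold-change above 1.5, with the adjusted p given beside it. In acute LSECs, 26 of 31 members tested were called (83.9%), beside 74.1% of all genes tested. Of the members, 8 were called higher (25.8%, beside 35.8% of all genes) and 18 lower (58.1%, beside 38.3%), and their median log2 fold change over those tested was -1.40, beside -0.09 over all genes. In fibrosis, 26 of 32 were called (81.2%), 11 higher and 15 lower, beside 71.2% of all genes (35.8% higher and 35.4% lower), with a median of 0.09 beside -0.03. In cirrhosis, 19 of 32 were called (59.4%), 16 higher and 3 lower, beside 54.5% of all genes (28.8% higher and 25.7% lower), with a median of 0.80 beside 0.07. The members called were thus mostly lower in acute and mostly higher in cirrhosis.

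Groups did not overlap in 19 of 31 members in acute against healthy (61.3%, beside 60.0% of all genes), 15 of 32 in fibrosis (46.9%, beside 58.7%) and 8 of 32 in cirrhosis, where 27.2% of all genes did not overlap. These shares were close to or under those of all genes. Between fibrosis and acute, 12 of 30 members were called, all 12 higher in fibrosis, beside 15.7% of all genes called, 14.3% higher and 1.39% lower, and 6 did not overlap, beside 17.2% of all genes. Between cirrhosis and fibrosis, 28 of 33 were called, 23 higher and 5 lower, beside 64.2% of all genes (34.5% higher and 29.7% lower), and 22 did not overlap (66.7%, beside 63.3%). Between TAA control and control, 18 of 30 were called, 4 higher and 14 lower in TAA control, beside 29.4% of all genes (13.5% higher and 15.9% lower), and 18 members did not overlap (60.0%, beside 35.4% of all genes). The comparisons of the CCl4 model share libraries, so their counts are not independent of each other.

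**Figure D3:**
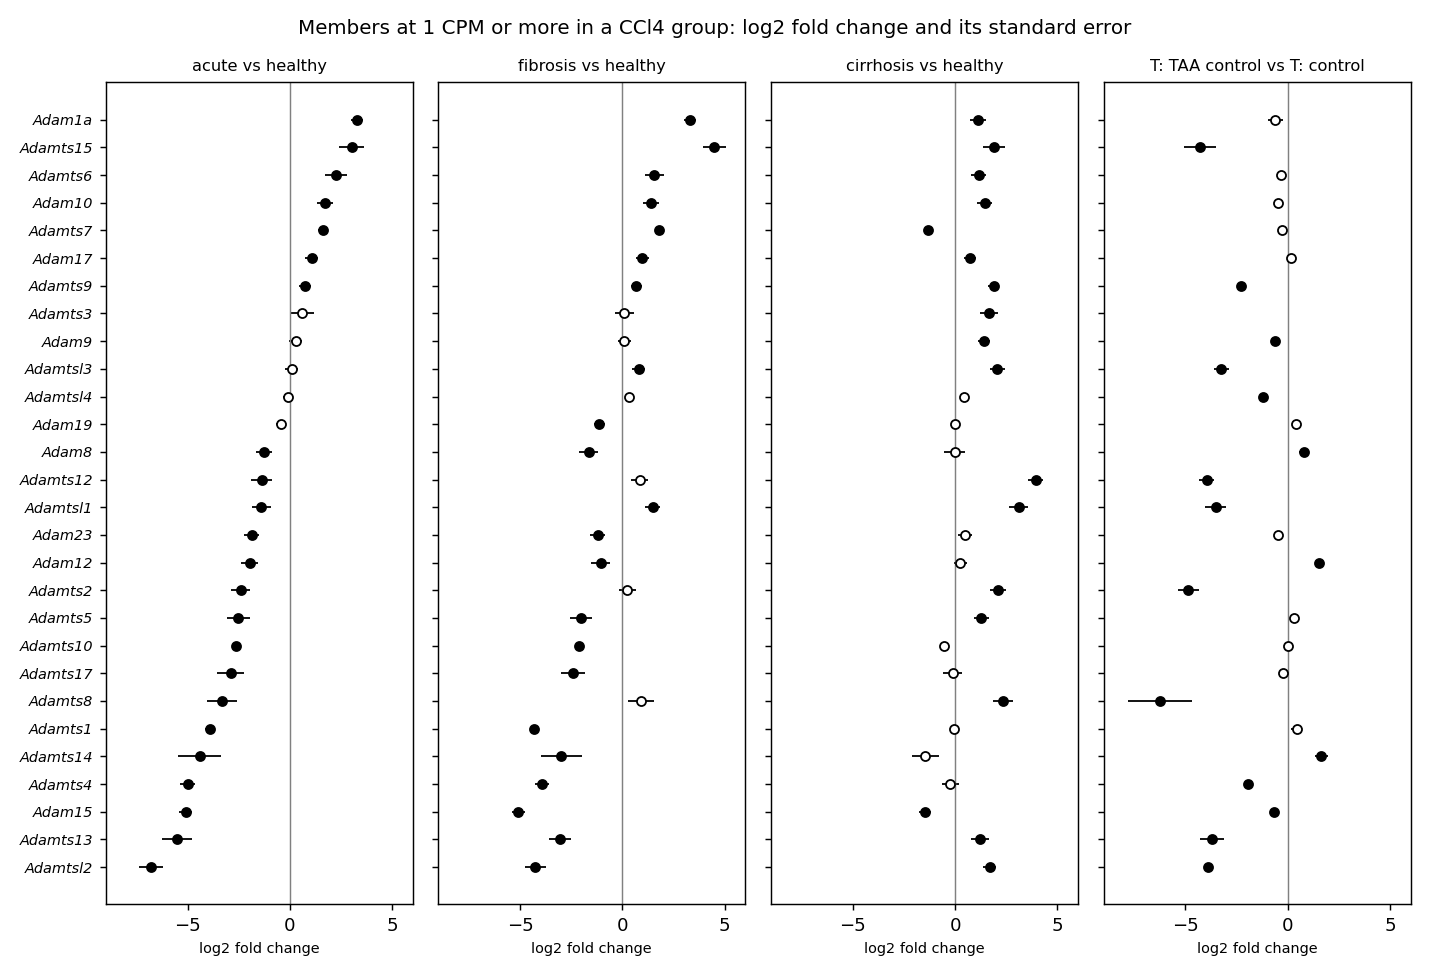
Log2 fold change with its standard error (x axis) of the 28 members at 1 CPM or more in a CCl4 group (y axis), in 4 comparisons. Filled points passed the fold-change threshold with an adjusted p under 0.05, open points did not. Adamtsl2 is lowest in acute (-6.81) and Adamts7 is the filled point to the left in cirrhosis that stood to the right in acute and fibrosis.

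The proteases that cut aggrecan and versican, large proteoglycans of the matrix, are Adamts1, Adamts4, Adamts5, Adamts8, Adamts9, Adamts15 and Adamts20, and they did not move together. Adamts1 and Adamts4 fell 14.9-fold and 32.0-fold in acute and 19.9-fold and 15.2-fold in fibrosis, and in cirrhosis neither was called. Their promoters, and those of Adamtsl2 and Adamts7, are shown as examples of genes that fell in acute and fibrosis and, for Adamts7, of one that rose there. Adamtsl2 had the largest fall of the members tested in acute, and otherwise these are not the members with the largest differences in each direction. Each is the 250 bases before a start site in RefSeq's rat annotation (build GRCr8, not the Rnor_6.0 build of the counts), printed 5′ to 3′ on the gene's strand, at chr11:38427385-38427634 (minus strand), chr13:86202761-86203010 (plus), chr3:30802450-30802699 (plus) and chr8:99584279-99584528 (plus), with TATAAA and GGGCGG on either strand in capitals.
Adamts1: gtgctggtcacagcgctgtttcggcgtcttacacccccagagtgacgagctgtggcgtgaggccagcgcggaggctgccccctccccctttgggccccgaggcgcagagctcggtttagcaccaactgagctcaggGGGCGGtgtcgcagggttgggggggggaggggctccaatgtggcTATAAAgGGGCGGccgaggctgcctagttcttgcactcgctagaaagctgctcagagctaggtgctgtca
Adamts4: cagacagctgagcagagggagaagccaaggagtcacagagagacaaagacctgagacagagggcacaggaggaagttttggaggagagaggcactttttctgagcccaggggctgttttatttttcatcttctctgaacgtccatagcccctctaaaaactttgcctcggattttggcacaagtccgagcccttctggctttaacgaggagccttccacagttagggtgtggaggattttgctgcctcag
Adamtsl2: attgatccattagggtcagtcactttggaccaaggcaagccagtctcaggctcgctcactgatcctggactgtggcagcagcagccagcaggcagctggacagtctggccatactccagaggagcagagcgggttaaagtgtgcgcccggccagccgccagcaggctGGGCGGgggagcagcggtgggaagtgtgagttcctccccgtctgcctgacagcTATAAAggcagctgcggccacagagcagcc
Adamts7: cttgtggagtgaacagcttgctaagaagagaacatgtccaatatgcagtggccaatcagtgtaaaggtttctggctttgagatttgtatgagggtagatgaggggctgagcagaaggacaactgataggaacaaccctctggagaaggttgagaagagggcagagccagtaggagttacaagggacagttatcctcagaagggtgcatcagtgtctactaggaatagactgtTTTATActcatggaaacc

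TATAAA, the TATA box letters, began 70 bases before the Adamts1 start and 30 bases before the Adamtsl2 start, and stood on the opposite strand 18 bases before the Adamts7 start. GGGCGG, the GC box letters, began 114 and 63 bases before the Adamts1 start and 83 bases before the Adamtsl2 start. Adamts4 held neither set of letters in this window. Promoter entries were found for 32 of the 49 members (43 entries). TATAAA stood in 9 of the 43 and in 12.9% of 33469 promoters of the same length, and GGGCGG in 20 of the 43 and in 30.5% of all. TGANTCA, the AP-1 letters, stood in 1 member promoter (Adam19) and in 6.34% of all, and TGACGTCA, the cAMP response letters, in 1 (Adam26a) and in 1.59% of all. TATAAA and GGGCGG share no overlapping letters in the printed windows, and a match to letters is a description, not a site.

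For Adamts1, also known to limit vessel growth, the lowest, median and highest values were 969, 1447 and 1933 CPM in healthy and 969.6, 1355 and 1808 CPM in cirrhosis, the form used below for these groups of 6. Its values in groups of 5, here and below in order of replicate number, were 134, 137, 69.2, 69.2 and 77.1 CPM in acute and 65.7, 65.1, 71.0, 69.0 and 68.9 CPM in fibrosis. Every acute and fibrosis library lay below every healthy and cirrhosis library. The log2 fold change ± standard error was -3.90 ± 0.24 (adjusted p = 3.39e-08) in acute, -4.32 ± 0.16 (adjusted p = 2.38e-09) in fibrosis and -0.08 ± 0.19 (adjusted p = 0.737) in cirrhosis, all against healthy, and 4.29 ± 0.12 (adjusted p = 1.56e-10) in cirrhosis against fibrosis. Adamts4, a major aggrecanase, was at 817, 1357 and 3992 CPM in healthy and 414, 1493 and 1869.8 CPM in cirrhosis, and at 49.3, 32.0, 35.3, 46.9 and 73.7 CPM in acute and 73.3, 76.4, 141, 103 and 87.2 CPM in fibrosis. Cirrhosis library 2, at 414 CPM, was the only one of its group below 1354 CPM, and it still lay above all acute and fibrosis libraries. Adamts4 changed by -5.00 ± 0.36 (adjusted p = 1.22e-07) in acute, -3.92 ± 0.34 (adjusted p = 8.63e-07) in fibrosis, -0.24 ± 0.41 (adjusted p = 0.64) in cirrhosis and 1.13 ± 0.23 (adjusted p = 0.0105) from acute to fibrosis on the log2 scale. The immediate-early sum given above was also low in acute and fibrosis, and in the TAA experiment it was higher in TAA control, where Adamts4 was lower. The sum of vascular and lymphatic endothelium and that of stellate cells and fibroblasts were also lower in acute and fibrosis than in healthy. Both were lower in TAA control than in control, as Adamts4 was, while Adamts1 overlapped there. The part of these sums was not tested. In the TAA experiment Adamts1 was at 3206, 2748, 1637, 1217 and 1223 CPM in control and 2444, 3193, 2682, 2209 and 2157 CPM in TAA control, overlapping (0.44 ± 0.27, adjusted p = 0.205). Adamts4, in contrast, was at 1387, 1056, 1447, 1529 and 1259 CPM in control and 324, 359, 223, 428 and 418 CPM in TAA control. All 5 TAA control values of Adamts4 lay below all 5 control values (-1.95 ± 0.18, adjusted p = 2.62e-05).

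Adamts5, the other main aggrecanase, lies next to Adamts1 on chromosome 11 in RefSeq's gene order, with no gene between them, and fell 5.72-fold in acute and 4.01-fold in fibrosis and rose 2.42-fold in cirrhosis. It was at 3.23, 4.54 and 17.1 CPM in healthy and 12.4, 14.3 and 19.5 CPM in cirrhosis, and at 0.980, 0.763, 1.36, 0.806 and 1.70 CPM in acute and 2.47, 0.967, 1.26, 1.58 and 1.43 CPM in fibrosis. Acute and fibrosis did not overlap healthy, whereas cirrhosis did. On the log2 scale Adamts5 changed by -2.51 ± 0.55 (adjusted p = 0.00117) in acute, -2.005 ± 0.54 (adjusted p = 0.0049) in fibrosis and 1.27 ± 0.36 (adjusted p = 0.00915) in cirrhosis, and without healthy libraries 5 and 6, which were high, by -1.72, -1.29 and 1.94. It was at 33.2, 23.5, 20.1, 19.5 and 22.5 CPM in control and 27.2, 31.3, 32.3, 29.5 and 25.9 CPM in TAA control (0.32 ± 0.13, adjusted p = 0.0655).

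Adamts9, a versican-cutting protease found in many endothelia, rose 3.68-fold in cirrhosis, with all 6 cirrhosis libraries above all healthy ones. It was at 19.9, 35.5 and 64.0 CPM in healthy and 93.7, 129 and 161 CPM in cirrhosis, and at 63.8, 57.0, 54.9, 34.1 and 90.2 CPM in acute and 56.8, 49.6, 67.5, 55.3 and 39.8 CPM in fibrosis. Acute and fibrosis values overlapped healthy. The log2 fold changes of Adamts9 were 0.74 ± 0.31 (adjusted p = 0.0432) in acute, 0.67 ± 0.27 (adjusted p = 0.0395) in fibrosis and 1.88 ± 0.25 (adjusted p = 0.000145) in cirrhosis, and the acute and fibrosis calls, whose fold-changes were near the threshold, were lost in 5 and 7 of the alternative fits. TAA control lay below control without overlap, at 149, 227, 293, 214 and 189 CPM in control and 40.3, 49.5, 36.1, 47.3 and 45.5 CPM in TAA control (-2.27 ± 0.16, adjusted p = 7.62e-06).

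Adamts8 and Adamts15 are neighbours on chromosome 8 in RefSeq's gene order, with no protein-coding gene between them, and moved apart in acute. Adamts8, which also limits vessel growth, was at 0.536, 1.62 and 5.53 CPM in healthy and 4.51, 7.21 and 16.1 CPM in cirrhosis, and at 0.109, 0.0272, 0.222, 0.0921 and 0.568 CPM in acute and 3.36, 4.80, 4.99, 2.35 and 0.671 CPM in fibrosis. Adamts15 was at 0.0715, 0.480 and 1.11 CPM in healthy and 0.713, 1.38 and 2.50 CPM in cirrhosis, and at 1.09, 2.83, 5.08, 4.31 and 4.17 CPM in acute and 5.91, 11.3, 4.29, 10.8 and 12.4 CPM in fibrosis. In acute, Adamts8 fell (-3.32 ± 0.75 on the log2 scale, adjusted p = 0.00149) and Adamts15 rose (3.03 ± 0.61, adjusted p = 0.000624), each with overlap with healthy, and all 5 fibrosis libraries exceeded healthy for Adamts15 (4.49 ± 0.56, adjusted p = 1.66e-05). In cirrhosis both were called higher than healthy, by 2.32 ± 0.49 (adjusted p = 0.00174) and 1.90 ± 0.55 (adjusted p = 0.00986). Without healthy libraries 5 and 6 the cirrhosis value of Adamts8 was 1.65, and Adamts15 gave 2.40 in acute, 3.78 in fibrosis and 1.14 in cirrhosis. Adamts15 was lower in cirrhosis than in fibrosis (-2.55 ± 0.40, adjusted p = 9.04e-05). In the other experiment both lay lower in TAA control without overlap, Adamts8 at 25.9, 7.81, 4.93, 38.8 and 8.83 CPM in control and 0.373, 0.0667, 0.132, 0.0790 and 0.279 CPM in TAA control (-6.23 ± 1.57, adjusted p = 0.00714), and Adamts15 at 1.23, 1.75, 1.89, 6.65 and 4.26 CPM in control and 0.102, 0.0667, 0.0988, 0.276 and 0.120 CPM in TAA control (-4.30 ± 0.79, adjusted p = 0.00127). Adamts20 had no count in any healthy or cirrhosis library, reached 0.167 CPM in acute and 0.0665 to 0.201 CPM in fibrosis, and was tested in no comparison.

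**Figure D4:**
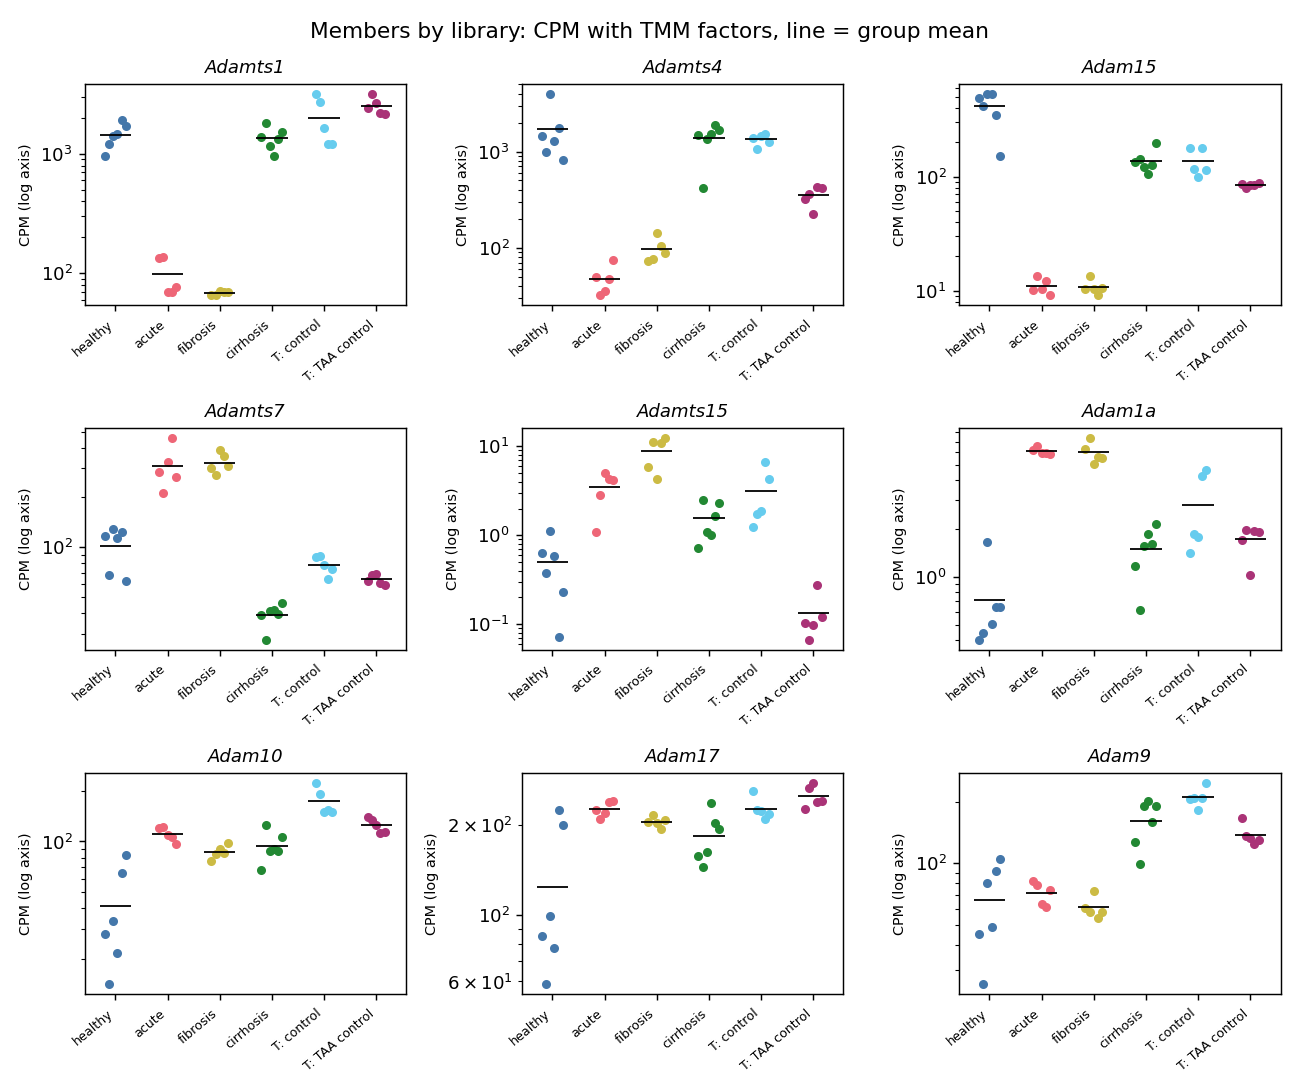
CPM (y axis, log scale) of Adamts1, Adamts4, Adam15, Adamts7, Adamts15, Adam1a, Adam10, Adam17 and Adam9 by group (x axis), with 1 point per library and a line at the group mean. Adamts1, Adamts4 and Adam15 are lowest in acute and fibrosis, whereas Adamts7 and Adam1a are highest there.

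Adamts2, Adamts3 and Adamts14 remove the amino-terminal propeptide of procollagens, and Adamts3 also matures the lymphatic growth factor Vegfc. Adamts2 fell in acute, did not pass the test in fibrosis and rose in cirrhosis. It was at 2.61, 4.42 and 9.70 CPM in healthy and 8.53, 21.4 and 32.9 CPM in cirrhosis, and at 0.517, 0.490, 1.22, 0.944 and 1.96 CPM in acute and 5.25, 8.05, 5.15, 9.09 and 2.39 CPM in fibrosis. Acute lay below healthy without overlap (-2.41 ± 0.48 on the log2 scale, adjusted p = 0.000557) and fibrosis above acute without overlap (2.68 ± 0.50, adjusted p = 0.00749), while fibrosis against healthy gave 0.22 ± 0.42 (adjusted p = 0.641) and cirrhosis against healthy 2.08 ± 0.39 (adjusted p = 0.000821). The stellate cell and fibroblast markers summed, as given above, to their lowest level in acute and to higher levels in cirrhosis and control, and their part in this was not tested. Adamts2 was at 57.7, 139.6, 41.8, 49.9 and 70.9 CPM in control and 3.43, 2.57, 1.55, 1.74 and 2.35 CPM in TAA control, which did not overlap (-4.85 ± 0.53, adjusted p = 6.48e-05).

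Adamts14 had another pattern, with its highest CCl4 values in healthy libraries. It was at 1.72, 4.95 and 36.3 CPM in healthy and 1.96, 2.43 and 3.02 CPM in cirrhosis, and at 0.463, 0.844, 0.472, 0.0691 and 0.189 CPM in acute and 4.53, 0.749, 0.299, 0.803 and 0.350 CPM in fibrosis. Fibrosis library 12, at 4.53 CPM, stood above the other 4. Adamts14 changed by -4.40 ± 1.05 (adjusted p = 0.00212) in acute, without overlap, by -3.002 ± 0.998 (adjusted p = 0.0162) in fibrosis and by -1.45 ± 0.65 (adjusted p = 0.0716) in cirrhosis, the last being called on the unadjusted p alone and lost in 12 of the alternative fits, while without healthy libraries 5 and 6 the values were -5.09, -3.78 and -2.28. TAA control exceeded control for Adamts14, at 3.03, 7.18, 3.81, 2.78 and 3.22 CPM in control and 6.82, 9.48, 16.1, 16.4 and 13.5 CPM in TAA control (1.64 ± 0.33, adjusted p = 0.00218), where Adamts2 was far lower. Adamts3 stayed at 0.107 to 0.646 CPM in healthy and 0.675 to 2.08 CPM in cirrhosis, without overlap (1.64 ± 0.44, adjusted p = 0.00676), and passed the test in neither acute (0.60 ± 0.56, adjusted p = 0.337) nor fibrosis (0.09 ± 0.46, adjusted p = 0.863). As mean ± SD in cirrhosis (n = 6) against healthy (n = 6), its substrate Vegfc was 32.4 ± 8.47 against 4.07 ± 1.38 CPM, log2 fold change 3.05, adjusted p = 2.69e-05, and Col1a1, a procollagen chain, 50.9 ± 49.9 against 10.1 ± 4.06 CPM, log2 fold change 2.03, adjusted p = 0.00809. The form mean ± SD against that of healthy is used for list genes below.

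Adamts13, the protease that cuts von Willebrand factor multimers, fell 46.2-fold in acute and 8.39-fold in fibrosis and rose 2.30-fold in cirrhosis. It was at 7.55, 29.5 and 42.4 CPM in healthy and 22.2, 63.0 and 86.5 CPM in cirrhosis, and at 0.817, 0.300, 0.333, 0.184 and 1.89 CPM in acute and 2.78, 3.68, 2.79, 3.76 and 1.20 CPM in fibrosis. None of the acute and fibrosis libraries reached the lowest healthy library, while cirrhosis overlapped healthy. The log2 fold changes of Adamts13 were -5.53 ± 0.73 (adjusted p = 2.33e-05), -3.07 ± 0.53 (adjusted p = 0.000234) and 1.20 ± 0.45 (adjusted p = 0.0335), with 2.52 ± 0.56 (adjusted p = 0.0135) from acute to fibrosis. Its substrate gene Vwf, a product of endothelial cells, was 10.7 ± 4.93 against 2303 ± 1067 CPM, log2 fold change -7.74, adjusted p = 8.32e-09 in acute against healthy and 25.1 ± 10.1 against 2303 ± 1067 CPM, log2 fold change -6.43, adjusted p = 2.67e-08 in fibrosis. Protease and substrate genes were thus both lower in these stages. The vascular endothelium sum given above was lower too, but Vwf belongs to that list and makes up most of it (median sum 2486 CPM in healthy). The stellate cell sum was also lower (median 232 CPM in healthy, 12.7 in acute and 130.2 in fibrosis). In fibrosis its genes split. Means of Col3a1 (22.8 CPM, healthy 223), Lrat, Des, Ngfr and Hand2 were lower than in healthy, while that of Lum was almost unchanged (0.244 CPM, healthy 0.246). The means of Col1a1 (47.5 CPM, healthy 10.1), Lox, Dcn and Pdgfrb were higher. The smooth muscle sum, in contrast, was above healthy in fibrosis (median 5.85 CPM in healthy, 9.14 in acute and 89.0 in fibrosis). The part of these lists was not tested. In the TAA experiment Adamts13 was at 54.2, 138, 59.0, 25.1 and 54.9 CPM in control and 5.91, 2.97, 2.07, 6.59 and 7.97 CPM in TAA control (-3.69 ± 0.58, adjusted p = 0.000505).

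Adamtsl2, whose protein binds fibrillin and latent TGF-beta binding proteins and is a member of the same chromosome 3 neighbourhood as Adamts13, with 3 protein-coding genes between them, had the largest fall of the members tested in acute. It fell 112-fold in acute and 19.1-fold in fibrosis and rose 3.22-fold in cirrhosis. Adamtsl2 was at 13.6, 21.1 and 47.4 CPM in healthy and 49.2, 70.1 and 129 CPM in cirrhosis, and at 0.218, 0.136, 0.250, 0.115 and 0.284 CPM in acute and 1.58, 1.997, 1.46, 0.889 and 0.467 CPM in fibrosis. None of the 4 groups overlapped each other in these comparisons. Its log2 fold changes were -6.81 ± 0.59 (adjusted p = 6.12e-07), -4.26 ± 0.50 (adjusted p = 9.28e-06) and 1.69 ± 0.32 (adjusted p = 0.00094), and it rose from acute to fibrosis by 2.60 ± 0.49 (adjusted p = 0.00775). It was at 123, 118, 117, 87.2 and 85.8 CPM in control and 8.22, 6.44, 4.94, 7.74 and 8.05 CPM in TAA control, again without overlap (-3.92 ± 0.18, adjusted p = 4.26e-07). The printed promoter of Adamtsl2 carries both letter sets, whereas no promoter is shown for Adamts13.

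**Figure D5:**
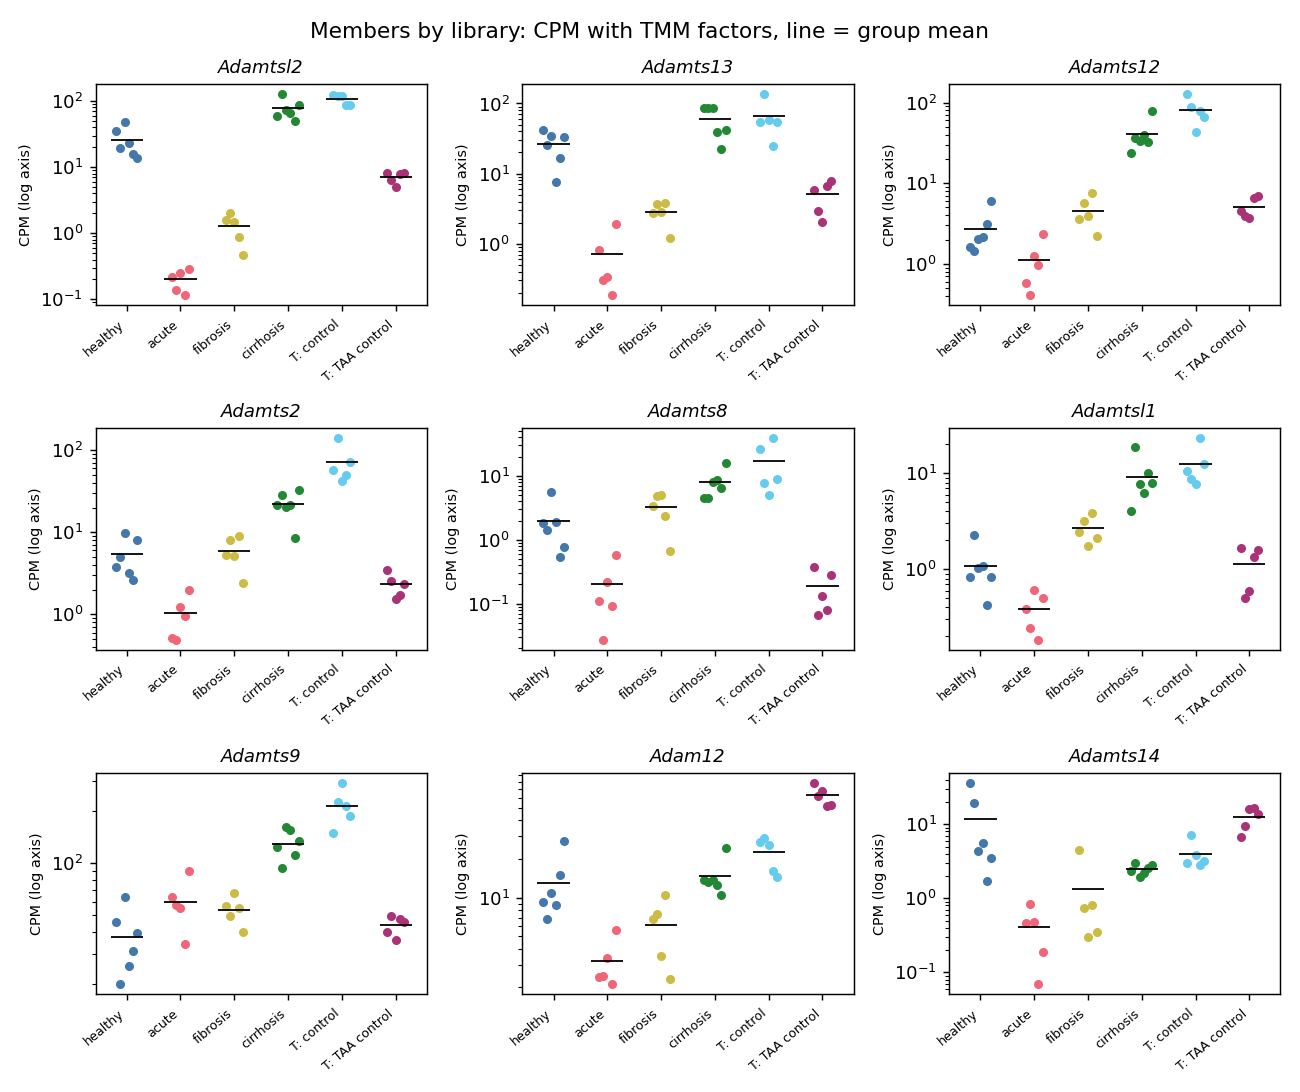
CPM (y axis, log scale) of Adamtsl2, Adamts13, Adamts12, Adamts2, Adamts8, Adamtsl1, Adamts9, Adam12 and Adamts14 by group (x axis), with 1 point per library and a line at the group mean. The first 6 genes are lowest in acute among the CCl4 groups and lie lower in TAA control than in control, whereas Adam12 and Adamts14 lie higher in TAA control.

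Adamts7 and Adamts12 both cut cartilage oligomeric matrix protein and share a domain layout, but differed in direction. Adamts7, which is also known in vascular smooth muscle, rose 3.12-fold in acute and 3.44-fold in fibrosis and fell 2.52-fold in cirrhosis. It was at 62.9, 115 and 129 CPM in healthy and 27.6, 40.4 and 46.0 CPM in cirrhosis, and at 285, 211, 327, 456 and 267 CPM in acute and 301, 274, 388, 355 and 308 CPM in fibrosis. All acute and fibrosis libraries lay above healthy, and all cirrhosis libraries below it. Against healthy, Adamts7 gave log2 fold changes of 1.64 ± 0.24 (adjusted p = 5.77e-05), 1.78 ± 0.21 (adjusted p = 9.66e-06) and -1.33 ± 0.21 (adjusted p = 0.000303), and -3.06 ± 0.13 (adjusted p = 1.59e-09) in cirrhosis against fibrosis. Its values were 87.6, 88.6, 78.5, 64.3 and 73.5 CPM in control and 62.9, 67.8, 68.6, 61.0 and 59.1 CPM in TAA control, a smaller difference under the fold-change threshold (-0.29 ± 0.09, adjusted p = 0.0239).

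Adamts12 was near its lowest in acute and rose 15.3-fold in cirrhosis. It was at 1.44, 2.07 and 5.97 CPM in healthy and 23.6, 34.9 and 77.5 CPM in cirrhosis, and at 0.572, 0.409, 1.25, 0.967 and 2.34 CPM in acute and 3.56, 5.65, 3.89, 7.52 and 2.19 CPM in fibrosis. Cirrhosis did not overlap healthy. Adamts12 gave log2 fold changes of -1.38 ± 0.49 (adjusted p = 0.022), 0.83 ± 0.41 (adjusted p = 0.0827) and 3.93 ± 0.37 (adjusted p = 4.26e-05), and without healthy libraries 5 and 6 the acute value was -0.82 and no longer passed the test. TAA control lay lower, at 129, 89.1, 42.6, 79.4 and 65.4 CPM in control and 4.52, 3.90, 3.75, 6.59 and 6.89 CPM in TAA control, without overlap (-3.96 ± 0.37, adjusted p = 2.74e-05).

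Adamts6, Adamts10 and Adamts17 are linked to fibrillin microfibrils. Adamts10 fell 6.11-fold in acute and 4.30-fold in fibrosis. It was at 44.7, 73.3 and 89.9 CPM in healthy and 38.4, 46.2 and 50.5 CPM in cirrhosis, and at 8.66, 8.17, 12.3, 13.4 and 11.3 CPM in acute and 19.0, 15.4, 12.5, 14.4 and 12.9 CPM in fibrosis. Neither stage overlapped healthy. Adamts10 changed on the log2 scale by -2.61 ± 0.22 (adjusted p = 5.98e-07), -2.11 ± 0.20 (adjusted p = 1.95e-06) and, in cirrhosis, -0.54 ± 0.18 (adjusted p = 0.0216), and it was at 79.4, 78.9, 76.0, 66.9 and 59.3 CPM in control and 67.8, 69.6, 71.1, 75.3 and 73.9 CPM in TAA control (-0.00 ± 0.09, adjusted p = 0.974). Adamts17 also fell in these stages, and was at 0.502 to 3.46 CPM in healthy, 0.0461 to 0.327 in acute and 0.125 to 0.437 in fibrosis, with log2 fold changes of -2.90 ± 0.65 (adjusted p = 0.00133) and -2.41 ± 0.59 (adjusted p = 0.0028), the acute one being -2.27 without healthy libraries 5 and 6. Adamts6 went the other way, with 0.513, 0.967 and 2.95 CPM in healthy and 2.36, 2.64 and 2.86 CPM in cirrhosis, and 2.83, 5.77, 6.86, 11.5 and 3.09 CPM in acute and 4.19, 4.43, 1.90, 3.96 and 2.57 CPM in fibrosis. All 3 stages were called higher for Adamts6, by 2.24 ± 0.53 (adjusted p = 0.00185), 1.56 ± 0.45 (adjusted p = 0.0077) and 1.16 ± 0.37 (adjusted p = 0.0159), although healthy overlapped each of them, and without healthy libraries 5 and 6 the values were 3.01, 2.25 and 1.81. In the TAA experiment it was at 4.65, 6.66, 8.38, 7.25 and 8.41 CPM in control and 5.09, 5.71, 5.50, 6.04 and 5.82 CPM in TAA control (-0.31 ± 0.16, adjusted p = 0.139).

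The other ADAMTS-like genes share matrix-binding repeats, and 2 of them rose in cirrhosis. Adamtsl1 was at 0.429, 0.930 and 2.29 CPM in healthy and 3.998, 7.87 and 18.7 CPM in cirrhosis, and at 0.381, 0.245, 0.611, 0.184 and 0.505 CPM in acute and 2.47, 3.18, 1.76, 3.87 and 2.10 CPM in fibrosis. Its log2 fold changes were -1.40 ± 0.47 (adjusted p = 0.0157) in acute, 1.49 ± 0.37 (adjusted p = 0.00309) in fibrosis and 3.10 ± 0.47 (adjusted p = 0.000251) in cirrhosis, the last without overlap. Adamtsl3 was at 0.602, 1.21 and 2.07 CPM in healthy and 2.29, 5.63 and 8.48 CPM in cirrhosis, and at 1.25, 1.01, 1.58, 1.27 and 1.42 CPM in acute and 1.61, 3.28, 1.86, 2.07 and 1.90 CPM in fibrosis. It changed by 0.09 ± 0.32 (adjusted p = 0.812), 0.80 ± 0.32 (adjusted p = 0.0371) and 2.07 ± 0.39 (adjusted p = 0.000831), and cirrhosis did not overlap healthy. Adamtsl4, a fibrillin-binding protein of the eye, was at 8.04, 11.9 and 13.2 CPM in healthy and 13.4, 14.9 and 17.3 CPM in cirrhosis, and at 7.40, 8.63, 17.9, 9.44 and 10.7 CPM in acute and 18.6, 15.7, 10.4, 11.7 and 11.3 CPM in fibrosis. Its log2 fold changes were -0.10 ± 0.23 (adjusted p = 0.697), 0.30 ± 0.19 (adjusted p = 0.178) and 0.41 ± 0.15 (adjusted p = 0.0272), none of which reached the fold-change threshold. All 3 lay lower in TAA control without overlap, Adamtsl1 at 10.6, 8.62, 7.80, 23.2 and 12.3 CPM in control and 1.66, 0.5005, 0.593, 1.34 and 1.59 CPM in TAA control (-3.52 ± 0.52, adjusted p = 0.000361). Adamtsl3 was at 6.98, 17.03, 8.81, 9.26 and 10.8 CPM in control and 1.63, 0.667, 0.988, 0.869 and 1.39 CPM in TAA control (-3.25 ± 0.38, adjusted p = 0.000101), and Adamtsl4 at 23.3, 37.6, 36.2, 50.5 and 40.9 CPM in control and 12.9, 18.1, 15.3, 17.4 and 16.7 CPM in TAA control (-1.20 ± 0.19, adjusted p = 0.000553). Adamtsl5, under 1 CPM on average, fell in acute (-2.05 ± 0.41, adjusted p = 0.000621) and fibrosis (-0.92 ± 0.37, adjusted p = 0.038).

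Of the ADAM sheddases, Adam10, which cuts Notch receptors and cadherins, and Adam17, which releases TNF and EGF receptor ligands, rose in all 3 stages. Adam10 was at 14.1, 30.9 and 83.4 CPM in healthy and 67.8, 89.4 and 125 CPM in cirrhosis, and at 121, 121, 109, 107 and 96.1 CPM in acute and 76.7, 84.0, 89.9, 85.5 and 98.0 CPM in fibrosis. All acute values lay above healthy, and fibrosis and cirrhosis overlapped it. Adam17 was at 58.7, 92.0 and 225 CPM in healthy and 145, 178 and 237 CPM in cirrhosis, and at 224, 209.8, 218, 238 and 241 CPM in acute and 205, 215, 202, 193 and 208 CPM in fibrosis. In healthy libraries 5 and 6 Adam17 was at 225 and 199.9 CPM, within the range of the CCl4 stages, and in the other 4 at 58.7 to 99.3 CPM. The log2 fold changes were 1.72 ± 0.38 (adjusted p = 0.00115), 1.40 ± 0.38 (adjusted p = 0.00527) and 1.44 ± 0.35 (adjusted p = 0.00429) for Adam10, and 2.38, 1.99 and 1.98 without those libraries. For Adam17 they were 1.08 ± 0.32 (adjusted p = 0.00757), 0.97 ± 0.31 (adjusted p = 0.0144) and 0.73 ± 0.29 (adjusted p = 0.0472), and 1.65, 1.46 and 1.17 without them, so both differences were larger then. The cirrhosis call of Adam17 was lost in 8 of the alternative fits. Adam10 was at 224, 193, 151, 154 and 151 CPM in control and 139.7, 134, 125, 112 and 113 CPM in TAA control (-0.47 ± 0.12, adjusted p = 0.00806), and Adam17 at 259, 225, 222, 209 and 218 CPM in control and 226, 265, 276, 238 and 239.9 CPM in TAA control (0.14 ± 0.08, adjusted p = 0.18).

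Adam9, a sheddase of many cells, did not pass the test in acute or fibrosis and rose 2.65-fold in cirrhosis. It was at 25.7, 64.6 and 105 CPM in healthy and 99.0, 175 and 201 CPM in cirrhosis, and at 82.0, 78.3, 63.7, 61.0 and 74.1 CPM in acute and 60.8, 58.0, 73.5, 54.1 and 58.1 CPM in fibrosis. The lowest cirrhosis value lay under the highest healthy one, so the groups overlapped. On the log2 scale, Adam9 gave 0.29 ± 0.31 (adjusted p = 0.403), 0.09 ± 0.31 (adjusted p = 0.804) and 1.40 ± 0.31 (adjusted p = 0.00229), and it was at 207, 208, 183, 209 and 248 CPM in control and 166, 136, 134, 124 and 129.8 CPM in TAA control (-0.61 ± 0.10, adjusted p = 0.000556). Adam15, an endothelial ADAM that binds integrins through an RGD motif in human, fell 33.8-fold in acute and 34.1-fold in fibrosis. Adam15 was at 151, 455 and 533 CPM in healthy and 105, 130.004 and 197 CPM in cirrhosis, and at 10.2, 13.6, 10.4, 12.0 and 9.12 CPM in acute and 10.3, 13.5, 10.3, 9.12 and 10.6 CPM in fibrosis. The 10 acute and fibrosis libraries lay far below all healthy ones, and cirrhosis overlapped healthy through healthy library 6, at 151 CPM. Its log2 fold changes were -5.08 ± 0.32 (adjusted p = 4.51e-08), -5.09 ± 0.32 (adjusted p = 6.48e-08) and -1.49 ± 0.29 (adjusted p = 0.00108), and it was one of the 3 members called lower in cirrhosis, with Adamts7 and Adamts14. It was at 178, 117, 99.9, 179 and 114 CPM in control and 86.3, 79.2, 84.4, 83.9 and 87.1 CPM in TAA control, without overlap (-0.67 ± 0.16, adjusted p = 0.00488).

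Adam12 and Adam19 belong to the meltrin group, as Adam9 does, and Adam8 is an ADAM of leukocytes and activated cells. Adam12 was at 6.77, 10.1 and 27.6 CPM in healthy and 10.4, 13.4 and 24.6 CPM in cirrhosis, and at 2.40, 2.48, 3.42, 2.12 and 5.65 CPM in acute and 6.88, 7.49, 3.49, 10.6 and 2.33 CPM in fibrosis. It fell in acute without overlap (-1.97 ± 0.41 on the log2 scale, adjusted p = 0.000743), and gave -1.07 ± 0.45 (adjusted p = 0.0453) in fibrosis and 0.26 ± 0.30 (adjusted p = 0.475) in cirrhosis. The fibrosis call was lost without healthy libraries 5 and 6 (-0.62). Adam12 was one of 4 members called higher in TAA control, at 27.1, 29.3, 25.7, 16.3 and 14.6 CPM in control and 78.6, 61.8, 67.2, 52.2 and 53.0 CPM in TAA control, without overlap (1.52 ± 0.20, adjusted p = 0.000197). Adam19, a meltrin of many tissues, was at 50.3, 63.1 and 87.0 CPM in healthy and 56.7, 64.4 and 81.6 CPM in cirrhosis, and at 58.1, 69.0, 46.1, 56.5 and 23.3 CPM in acute and 44.7, 36.8, 22.04, 35.4 and 15.7 CPM in fibrosis. Its log2 fold change was -1.13 ± 0.26 (adjusted p = 0.00169) in fibrosis, without overlap, and -0.44 ± 0.25 (adjusted p = 0.128) in acute and 0.01 ± 0.14 (adjusted p = 0.952) in cirrhosis, of which the fibrosis value passed the test. The difference between fibrosis and acute itself did not pass (-0.65 ± 0.34, adjusted p = 0.196). It was at 143, 127, 102, 88.9 and 79.1 CPM in control and 140.1, 145, 152, 138 and 132 CPM in TAA control (0.42 ± 0.15, adjusted p = 0.0332). Adam8 was at 5.19, 10.3 and 22.7 CPM in healthy and 2.72, 10.97 and 21.3 CPM in cirrhosis, and at 4.19, 4.96, 4.94, 3.55 and 2.43 CPM in acute and 7.14, 2.50, 2.13, 1.75 and 2.74 CPM in fibrosis. Acute lay below healthy without overlap, and fibrosis and cirrhosis overlapped it. The Kupffer cell and macrophage sum (median 1243 CPM in healthy, 112 in acute, 53.7 in fibrosis and 860.0 in cirrhosis) and the neutrophil sum (10.9, 0.300, 0.343 and 9.51 CPM) moved with it, and their part was not tested. Adam8 fell in acute (-1.24 ± 0.39, adjusted p = 0.0112) and fibrosis (-1.66 ± 0.46, adjusted p = 0.0059), not in cirrhosis (-0.02 ± 0.53, adjusted p = 0.973), and was at 1.30, 1.37, 2.65, 1.72 and 1.43 CPM in control and 2.89, 1.97, 2.77, 3.59 and 3.31 CPM in TAA control (0.79 ± 0.23, adjusted p = 0.016).

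Adam11, Adam22 and Adam23 have no active protease site and are known as adhesion proteins of neurons. Adam23 was at 75.8, 168 and 363 CPM in healthy and 158, 259.6 and 391 CPM in cirrhosis, and at 53.4, 51.6, 50.3, 36.7 and 44.9 CPM in acute and 68.8, 69.9, 69.7, 66.04 and 82.7 CPM in fibrosis. Acute lay below healthy without overlap, and fibrosis overlapped it. On the log2 scale, Adam23 gave -1.85 ± 0.36 (adjusted p = 0.000518), -1.22 ± 0.36 (adjusted p = 0.00846) and 0.49 ± 0.36 (adjusted p = 0.265), and -1.25 in acute and -0.70 in fibrosis without healthy libraries 5 and 6, and it was at 269, 279.8, 368, 272 and 390.3 CPM in control and 262, 219, 235, 217 and 204 CPM in TAA control (-0.46 ± 0.12, adjusted p = 0.00914). Adam11, at 0.328 to 0.937 CPM in healthy and 0.0278 to 0.161 in acute, fell in acute (-3.01 ± 0.46, adjusted p = 6.9e-05) and fibrosis (-3.31 ± 0.56, adjusted p = 0.000188), though without healthy libraries 5 and 6 it did not pass the low-count filter and was not tested. Adam22 did not exceed 0.0705 CPM in any library.

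Most of the remaining Adam genes are known from testis and sperm, though not Adam28, known from lymphocytes, or Adam33, and several belong to groups of near copies whose counts are less certain. Adam1a, a fertilin subunit, rose 9.73-fold in acute and 9.72-fold in fibrosis. It was at 0.402, 0.575 and 1.64 CPM in healthy and 0.615, 1.57 and 2.13 CPM in cirrhosis, and at 6.23, 6.54, 5.97, 5.92 and 5.87 CPM in acute and 6.31, 7.36, 5.09, 5.65 and 5.57 CPM in fibrosis. Acute and fibrosis lay above healthy and cirrhosis without overlap. Adam1a gave log2 fold changes of 3.28 ± 0.29 (adjusted p = 6.68e-07), 3.28 ± 0.29 (adjusted p = 9.84e-07) and 1.13 ± 0.39 (adjusted p = 0.0242), and it was at 1.41, 1.86, 1.78, 4.26 and 4.65 CPM in control and 1.70, 1.97, 1.02, 1.93 and 1.91 CPM in TAA control (-0.61 ± 0.38, adjusted p = 0.205). Adam9, Adam32, Adam5, Adam3a and Adam18 follow each other on chromosome 16 with no protein-coding gene between them. Of these, Adam32 was at 0 to 0.123 CPM in healthy and 0.350 to 0.936 CPM in fibrosis, without overlap (4.15 ± 0.54, adjusted p = 2.35e-05). It held 0 to 3 counts in healthy and 12 to 30 in fibrosis, and passed the low-count filter by the latter, so this direction was set beforehand. Adam5 had no count in any healthy or cirrhosis library, and reached 0.221 CPM in acute and 0.133 to 0.281 CPM in fibrosis. Adam3a and Adam18 did not exceed 0.0726 CPM. Adam4 rose in acute (2.01 ± 0.48, adjusted p = 0.00202) and fibrosis (1.58 ± 0.49, adjusted p = 0.0109) while under 1 CPM on average in the CCl4 groups, and gave 2.68 in acute without healthy libraries 5 and 6. Adam33, a gene of airway fibroblasts, was tested in cirrhosis only (-1.004 ± 0.74, adjusted p = 0.257).

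Of the remaining low genes, Adam2, Adam6, Adam24, Adam28, Adam30, Adamts16 and Adamts18 did not exceed 0.282 CPM in any library and were tested in no comparison. Adamts19 was at 0.954 to 3.50 CPM in control and 0 to 0.120 CPM in TAA control, without overlap (-4.22 ± 0.67, adjusted p = 0.00052), and at 0 to 0.233 CPM in healthy. In the CCl4 model it was tested between cirrhosis and fibrosis only, where cirrhosis was higher, at 0.0667 to 0.637 CPM against 0.0287 to 0.0332 CPM (3.02 ± 0.67, adjusted p = 0.00122). Each fibrosis library held 1 count of Adamts19 and cirrhosis library 5 held 3, so the gap between the groups rests on few counts. It passed the low-count filter by its counts in cirrhosis and, in the TAA pair, in control (30 to 100 counts, TAA control 0 to 3). The direction of both tests was thus set beforehand.

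From acute to fibrosis the 12 members called higher were Adam23, Adam32, Adamts2, Adamts4, Adamts8, Adamts12, Adamts13, Adamts15, Adamtsl1, Adamtsl2, Adamtsl3 and Adamtsl5. At an adjusted p under 0.05 there were 10, without Adam32 (2.25 ± 0.80, adjusted p = 0.0701) and Adamtsl5 (1.17 ± 0.44, adjusted p = 0.0836). The 12 include the procollagen protease Adamts2 and the von Willebrand factor protease, and of the pair of main sheddases Adam10 gave -0.27 ± 0.08 (adjusted p = 0.0387) and Adam17 -0.06 ± 0.06 (adjusted p = 0.453). Adamts8 lay at 0.0272 to 0.568 CPM in acute and 0.671 to 4.99 CPM in fibrosis (4.26 ± 0.90, adjusted p = 0.0109). Adamtsl1 lay at 0.184 to 0.611 CPM in acute and 1.76 to 3.87 CPM in fibrosis (2.94 ± 0.37, adjusted p = 0.00334). Adamts12 lay at 0.409 to 2.34 CPM in acute and 2.19 to 7.52 CPM in fibrosis (2.27 ± 0.48, adjusted p = 0.0111), which overlapped, unlike the other pair. The stellate cell and fibroblast sum was 8.41 to 29.3 CPM in acute and 43.7 to 176 CPM in fibrosis, and its part in these differences was not tested. The 5 members called lower in cirrhosis than in fibrosis were Adamts7, Adamts15, Adam1a, Adam4 and Adam32, with log2 fold changes from -4.42 to -0.64.

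Other genes of the pathway were taken from lists of maturation factors, inhibitors and substrates. Their counts stand beside the shares of all genes called higher and lower, which were 35.8% and 38.3% in acute, 35.8% and 35.4% in fibrosis, 28.8% and 25.7% in cirrhosis and 13.5% and 15.9% in TAA control, and a list's share near these is not a result about the list. Of the factors that mature Adam10 and Adam17 (rhomboid-like proteins, tetraspanins and proprotein convertases), 12 were tested in acute, where 2 were called higher and 7 lower, 12 in fibrosis with 3 higher (2 at adjusted p under 0.05) and 6 lower, and 12 in cirrhosis with 0 higher and 6 lower. Called in either direction were 9 of 12 in acute and 9 of 12 in fibrosis, close to the 74.1% and 71.2% of all genes. Tspan15, a tetraspanin that carries Adam10, was 18.1 ± 3.01 against 54.3 ± 13.8 CPM, log2 fold change -1.55, adjusted p = 0.000133 in cirrhosis against healthy. Adam10 itself was higher there, so enzyme and partner genes moved apart. Of 7 listed inhibitors, among them the TIMPs, 5 of 5 tested were lower in acute, 5 of 6 lower and 1 higher in fibrosis (4 and 0 at adjusted p under 0.05), and in cirrhosis 2 were higher and 1 lower of 6. Papln, the gene of the matrix protein papilin, was 7.47 ± 1.89 against 241 ± 76.1 CPM, log2 fold change -4.93, adjusted p = 1.79e-08 in fibrosis against healthy.

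Of 29 listed membrane proteins that Adam10 or Adam17 sheds, 28 were tested in acute (4 higher, 20 lower), 29 in fibrosis (6 higher, 18 lower) and 28 in cirrhosis (5 higher, 7 lower). At adjusted p under 0.05 there were 5 higher in fibrosis and 6 lower in cirrhosis, with the other counts as given. The 12 of 28 called in cirrhosis were a smaller share than the 54.5% of all genes. In acute, Met, the hepatocyte growth factor receptor, was 36.4 ± 8.23 against 3.12 ± 1.86 CPM, log2 fold change 3.78, adjusted p = 3.1e-06. Tgfa, an EGF receptor ligand, was 24.6 ± 11.2 against 2.65 ± 0.499 CPM, log2 fold change 3.08, adjusted p = 4.53e-05. Both rose. Dll4, a Notch ligand of endothelium, was 12.8 ± 3.60 against 782 ± 107 CPM, log2 fold change -5.92, adjusted p = 1.23e-09, and Tnf, a cytokine that Adam17 releases, 1.34 ± 1.23 against 75.4 ± 37.0 CPM, log2 fold change -7.82, adjusted p = 0.000126. Adam10 and Adam17 were higher in the same libraries in which these substrates were lower. In fibrosis Met and Dll4 were again among the largest differences (32.2 ± 5.76 against 3.12 ± 1.86 CPM, log2 fold change 3.64, adjusted p = 4.34e-06, and 10.7 ± 3.96 against 782 ± 107 CPM, log2 fold change -6.19, adjusted p = 1.26e-09). In cirrhosis Dll4 was 251 ± 52.3 against 782 ± 107 CPM, log2 fold change -1.65, adjusted p = 5.79e-05, and Ephb4, a venous receptor, 329.8 ± 114 against 929 ± 185 CPM, log2 fold change -1.52, adjusted p = 0.000174.

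Of 22 matrix substrates and partners of ADAMTS proteases, 5 of 18 tested were higher and 11 lower in acute, 8 of 18 higher and 8 lower in fibrosis, and 12 of 20 higher and 0 lower in cirrhosis. At adjusted p under 0.05 these were 10 lower in acute and 9 higher in cirrhosis, with the others as given. Reln, which encodes reelin, was 1678 ± 292 against 167 ± 34.7 CPM, log2 fold change 3.37, adjusted p = 1.15e-08 in acute, and 1377 ± 159.9 against 167 ± 34.7 CPM, log2 fold change 3.13, adjusted p = 1.29e-08 in fibrosis. Nid2, a basement membrane nidogen, was 192 ± 71.7 against 26.0 ± 9.66 CPM, log2 fold change 2.9998, adjusted p = 1.5e-05 in fibrosis. Vcan, the versican gene, was 48.3 ± 19.0 against 11.2 ± 2.20 CPM, log2 fold change 2.02, adjusted p = 0.000151 in cirrhosis, the stage in which 4 of the proteases that cut aggrecan and versican (Adamts5, Adamts8, Adamts9 and Adamts15) were higher and Adamts1 (-0.08, adjusted p = 0.737) and Adamts4 (-0.24, adjusted p = 0.64) were not called. In TAA control, 15 of 19 tested were lower and 1 higher than in control. Of the 2 genes whose enzymes add O-fucose glycans to thrombospondin repeats, Pofut2 and B3glct, 1 was lower in each stage.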

How the data were processed

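The 32 libraries hold LSEC RNA, with 22 in the CCl4 model and 10 in the TAA pair. Per the labels and the study's methods, the authors made strand-specific poly(A) libraries and used STAR for alignment (Rnor_6.0) and RSEM for quantification, and what they deposited are expected counts for 32623 genes, not normalized and not pooled. RSEM divides reads among similar genes, so near copies are less certain. Versions of these tools are not given in the sources used here.

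Expected counts were rounded. Software was limma 3.58.1, DESeq2 1.42.0 and edgeR 4.0.16 under R 4.3.3, and matplotlib 3.10.9 under Python 3.11.15 for figures. Genes that passed filterByExpr were scaled by TMM and tested by limma-voom, with only the libraries of the 2 groups in each fit and no covariate. A gene was called at an unadjusted p under 0.05 and a fold-change above 1.5, the thresholds of the study's methods, and p-values of limma-voom were adjusted by Benjamini-Hochberg over all genes tested. CPM used TMM factors over the 22 CCl4 libraries, and separately over the 10 others, so levels set across the experiments were scaled apart. Totals of 25646531 to 46464289 counts set the precision of low genes. Members were chosen by symbol, and members and lists were chosen with earlier results of these data known. Members with a mean of at least 5 CPM in a CCl4 group are described by library, and others by range. List genes are named where, against healthy, they were among the 3 largest rises or falls with adjusted p under 0.05, no overlap and at least 5 CPM. The labels do not say that libraries come from separate animals, while the paper's figure captions name independent isolations of LSECs. The p-values measure the spread between libraries. Each test was tried on simulated data with few changed genes and the same spread setting for every gene and group. The real groups differ in far more genes and in spread, so that trial does not show how the tests behave here. Alternatives were edgeR's quasi-likelihood test, DESeq2, other filters, scalings and weights, 1 fit over the CCl4 libraries, a replicate block, and leaving out libraries. Promoters came from RefSeq (GRCr8), as no genome of the build of the counts was used here, and gene order from the same annotation.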

Additional observations from a re-analysis of the deposited data

Results flagged for a closer look

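In 11 of 156 groups of a member's CPM values, the lowest or highest library stood further from the rest than Dixon's critical value at the 95% level allows, where chance alone gives about 7.8. Cirrhosis library 2 was low in Adamts4 (414 CPM, others 1354 to 1870) and in Adamts7 (27.6 CPM, others 39.0 to 46.0). Cirrhosis library 5 was low in Adamts2 (8.53 CPM, others 20.4 to 32.9), and cirrhosis library 6 was high in Adam12 (24.6 CPM, others 10.4 to 13.8). Fibrosis library 17 was low in Adamts13 (1.20 CPM, others 2.78 to 3.76) and high in Adam23 (82.7 CPM, others 66.04 to 69.9). Fibrosis library 12 was high in Adamts14 (4.53 CPM, others 0.299 to 0.803). Healthy library 6 was low in Adam15 (151 CPM, others 346 to 533), and healthy library 3 was high in Adam1a (1.64 CPM, others 0.402 to 0.646). TAA control library 13 was low in Adam1a (1.02 CPM, others 1.70 to 1.97), and TAA control library 14 was high in Adamts15 (0.276 CPM, others 0.0667 to 0.120). Stages were tested against each other only for fibrosis against acute and cirrhosis against fibrosis, and cirrhosis was not tested against acute.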

How the results depend on the processing

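Every count of members called stayed within 1.5 times its value under all alternatives run. Leaving out each library in turn gave 24 to 26 called in acute, 22 to 26 in fibrosis, 17 to 22 in cirrhosis, 11 to 15 in fibrosis against acute, 26 to 28 in cirrhosis against fibrosis and 17 to 19 in TAA control against control. With the replicate block, over the numbers both groups share, 26 members were called in acute (25 without the block in the same libraries) and 19 in cirrhosis (19 without). The labels do not say that a number marks a shared rat, batch or day. Deviations of same-numbered libraries correlated at -0.25 to 0.30 between healthy and cirrhosis and 0.03 to 0.20 between healthy and acute. Differently numbered libraries were not compared in this way, so these values do not settle whether same-numbered libraries share more than a number. No paired analysis was possible for the other comparisons because their groups share fewer than 2 numbers. Leaving out healthy replicates 5 and 6 together, an alternative chosen after seeing the data, gave 25 in acute, 25 in fibrosis and 25 in cirrhosis. Of members tested either way, Adam9 in acute (0.76), Adamts12 in fibrosis (1.32), and Adam12 (0.66), Adam23 (0.96), Adam4 (1.43), Adam33 (-1.85) and Adamts10 (-0.70) in cirrhosis then passed the call.

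Of the log2 fold changes of members called, 2569 alternative values kept direction and call, 63 lost the call, and 0 changed direction. Library size without TMM moved the median of all genes to 0.32, 0.37 and 0.42 in acute, fibrosis and cirrhosis against healthy, so changes near these sizes are relative to the scaling, and it ended the calls of Adam12 (-0.67) and Adam23 (-0.82) in fibrosis, Adamts12 (-0.94) and Adamtsl1 (-0.98) in acute, and Adamts14 (-1.13) in cirrhosis. Single libraries decided several calls near the thresholds. Adamts9 lost its call in acute without healthy library 2 (0.57) or 5 (0.69) or acute library 1 (0.72) or 8 (0.59), and in fibrosis without healthy library 2 (0.50), 4 (0.56) or 5 (0.62) or fibrosis library 12 (0.66), 15 (0.59) or 16 (0.66). Adam17 lost its call in cirrhosis without healthy library 1 (0.66), 2 (0.55) or 4 (0.63) or cirrhosis library 4 (0.65), 5 (0.69) or 6 (0.70), and by edgeR (0.58) and DESeq2 (0.60). Adamts14 lost it in cirrhosis without healthy library 1 (-0.97), 2 (-1.15) or 4 (-1.51) or any 1 cirrhosis library (-1.54 to -1.40), and against fibrosis by edgeR (0.87), while DESeq2 gave no p there. Adam12 lost it in fibrosis without healthy library 5 (-1.02) or fibrosis library 15 (-0.91) or 17 (-0.75). Adamtsl3 lost it in fibrosis without healthy library 1 (0.60) or 4 (0.75) or fibrosis library 13 (0.65), and Adamts12 in acute without acute library 2 (-1.08). Adam8 lost it in cirrhosis against fibrosis without cirrhosis library 5 (1.46) or 6 (1.56) or fibrosis library 13 (1.63), 15 (1.58), 16 (1.49) or 17 (1.66). In TAA control, Adam15 fell under the fold-change threshold without control library 1 (-0.56) or 4 (-0.56), and Adam9 without control library 5 (-0.56) or TAA control library 14 (-0.57). Without fibrosis library 17, Adamts8 kept its call in cirrhosis against fibrosis at 0.96, from 1.46. The causes were not tested. Depth limits the members under 1 CPM, of which a library gives few counts.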
